A study of Homo sapiens with 6 samples.

Results

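Transcripts of the activin, inhibin and growth differentiation factor (GDF) pathway were compared between a HEK293 line carrying a control vector and a HEK293 line carrying a myocilin vector. The group comprised 10 genes: the activin and inhibin subunits INHBE, INHBB, INHBA and INHA, the ligands GDF11 and GDF15, the antagonist FST, and the receptors ACVR1B, ACVR2A and ACVR2B. All probe sets that the platform annotation gives to exactly 1 of these genes were taken, which gave 26 of 41751 probe sets, and 10 of 18338 genes. A probe set is a group of short probes on the array that report on 1 transcript or a few. The genes were put together with the differences between these same arrays known, INHBE among them. The values of the 10 genes are therefore given as a description, with counts of calls and no test of their own.

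HEK293 cells are a long-established line from human embryonic kidney. Both lines were stable Tet-On transfectants, in which doxycycline switches on the inserted gene, and both were grown under hygromycin B and G418. The protocols, worded alike for both, give doxycycline at 0.2 or 1 µg/ml for 48 h. The dose behind each array is not stated, and a note naming doxycycline accompanies the myocilin arrays only, so drug exposure and vector cannot be told apart. Each line was measured on 3 Affymetrix HG-U133 Plus 2.0 arrays of total RNA and is represented once, and the labels do not say whether the arrays came from separate cultures, so the spread between them may be technical. The values are the authors' log values, read here as log2, relative to a reference level of each probe set that is not stated. They show differences between arrays, not how much of a transcript was present, so levels of different genes cannot be compared, and the markers of HEK293 or of other cells cannot be read as present or absent and are given below by their differences. MYOC, the inserted gene, lay between -8.32 and -6.71 on control and between 0.20 and 0.24 on myocilin arrays, so it was higher where the labels place it. All array medians were 0 and the standard deviations over probe sets were 0.169 to 0.197.

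Activins are secreted dimers of inhibin beta subunits, and inhibins pair a beta subunit with the alpha subunit encoded by INHA and oppose activins. Activins and GDF11 bind a type II receptor (ACVR2A or ACVR2B), which recruits and phosphorylates a type I receptor such as ACVR1B, and the receptor complex phosphorylates SMAD2 and SMAD3. These join SMAD4 and enter the nucleus. Follistatin, encoded by FST, traps activins outside the cell. GDF15 is a distant member of the family that signals through GFRAL and RET, and both GDF15 and INHBE are known as genes switched on by cell stress. These facts are background and were not measured here.

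Promoter windows of 9 of the 10 genes, all but INHBE, were matched by symbol in RefSeq (GRCh38.p14), with 10 windows since ACVR1B had 2. The 250 bases before the start of INHBB, of its inhibin partner INHA and of the stress-responsive ligand GDF15 are shown, since INHBB passed the threshold described below and the others did not. Each is written 5′ to 3′ on the plus strand, with CG dinucleotides in capitals, and lies at chr2:120345886-120346135, chr2:219572060-219572309 and chr19:18385908-18386157.
INHBB: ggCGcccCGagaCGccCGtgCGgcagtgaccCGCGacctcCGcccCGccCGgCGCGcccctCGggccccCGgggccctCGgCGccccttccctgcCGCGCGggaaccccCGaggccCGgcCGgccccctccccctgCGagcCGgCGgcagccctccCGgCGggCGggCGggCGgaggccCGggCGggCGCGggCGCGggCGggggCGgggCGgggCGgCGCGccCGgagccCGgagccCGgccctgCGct
INHA: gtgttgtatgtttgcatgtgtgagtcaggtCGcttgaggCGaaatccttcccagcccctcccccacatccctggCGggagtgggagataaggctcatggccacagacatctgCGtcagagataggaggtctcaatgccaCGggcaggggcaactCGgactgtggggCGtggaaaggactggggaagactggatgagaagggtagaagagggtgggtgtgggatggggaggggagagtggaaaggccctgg
GDF15: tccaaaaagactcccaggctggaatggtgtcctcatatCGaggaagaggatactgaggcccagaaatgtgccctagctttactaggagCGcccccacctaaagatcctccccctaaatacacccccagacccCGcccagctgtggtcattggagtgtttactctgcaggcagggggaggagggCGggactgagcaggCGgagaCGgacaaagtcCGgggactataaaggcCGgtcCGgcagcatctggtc

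The window of INHBB held 46 CG dinucleotides and was 89.6% G or C, above 99.97% of 35116 windows of the same length, whose median was 58% with 11 CG dinucleotides. The INHA window held 7 and was 59.6% G or C, and the GDF15 window held 9 and was 58.4% G or C. Other members spanned the range, from 40.8% for ACVR2A and 42.8% for INHBA to 82.8% for the upstream window of ACVR1B. Matches to 4 short motifs were sought on both strands. TGATGNAA, a core of the element bound by ATF4 with C/EBP factors, was found in 0 of the 10 windows, and in 3.14% of all windows. TGANGTCA, which covers cyclic AMP response elements, was found in INHBA as TGATGTCA, 105 bases before the start, and in 6.87% of all windows. TGANTCA, the AP-1 element, was found in INHA as TGAGTCA and in FST as TGATTCA, and in 6.57% of all windows. CAGAC, a SMAD-binding sequence, was found in the windows of INHA and GDF15 and in 1 of the ACVR1B windows, and in 38% of all windows. A match describes the letters only and does not show that a factor binds.

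Each probe set was compared between the lines with limma over all 41751 probe sets, and a probe set passed where its Benjamini-Hochberg adjusted p was under 0.05. Among the 26 member probe sets 3 passed, 1 higher (INHBB) and 2 lower (INHBE and 1 probe set of ACVR2A) in the myocilin line. Over all probe sets 11.0% passed, 5.46% higher and 5.56% lower. The arrays of the 2 lines did not overlap for 4 member probe sets, those 3 and 1 probe set of FST, against 30.4% of all probe sets. The median absolute difference among the 26 was 0.10 on the log2 scale, and 22 differed by less than 0.2. Nothing is read from these counts, since the genes were chosen on this comparison. A probe set that did not pass is not shown to be equal in the lines.

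**Figure D1:**
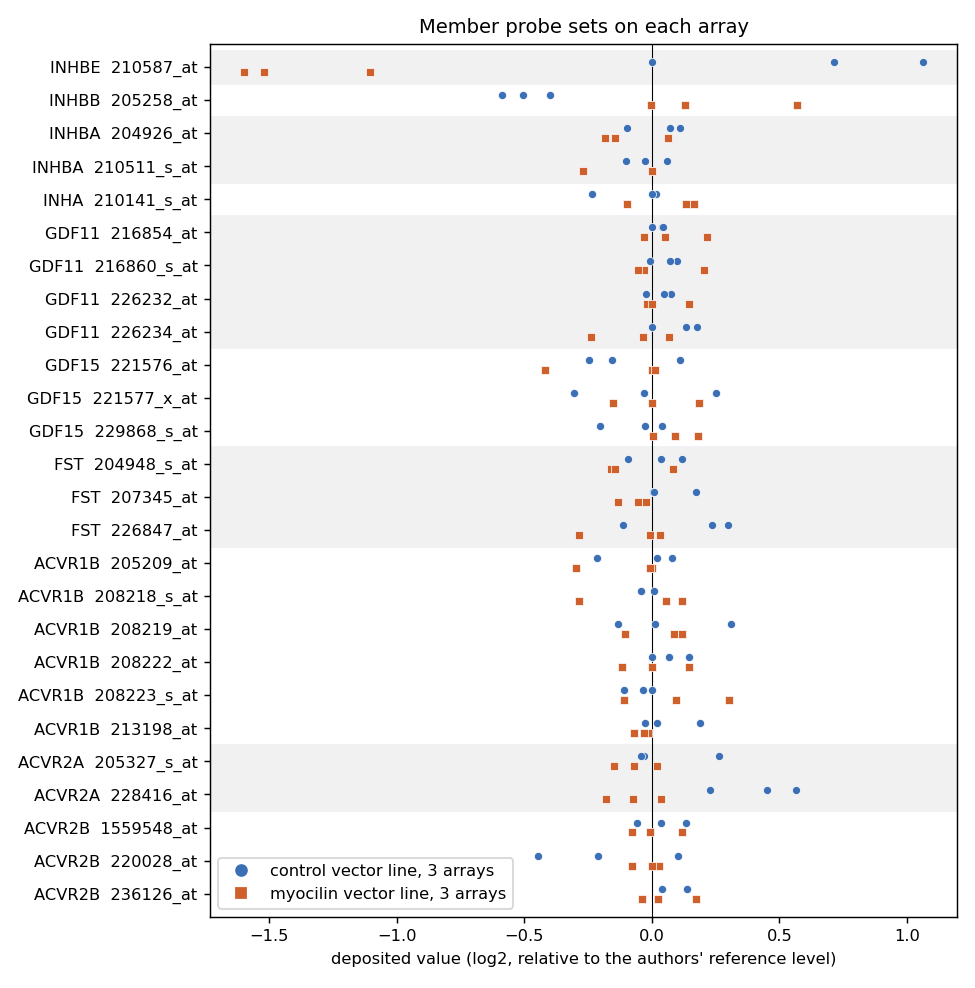
Deposited value (log2, relative to the authors' reference level) of each of the 26 member probe sets on the 3 control arrays (circles) and the 3 myocilin arrays (squares), grouped by gene. INHBE lies at 0.00 to 1.07 on control and -1.60 to -1.10 on myocilin arrays, INHBB lies the other way, and all other values lie between -0.45 and 0.57.

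Of the subunit genes, INHBE was lower and INHBB higher in the myocilin line. INHBE, which encodes the beta E subunit, a product chiefly of the liver, read 0.71, 1.07 and 0.00 on control and -1.60, -1.10 and -1.52 on myocilin arrays. Every myocilin array lay below every control array. The line means were 0.59 ± 0.54 and -1.41 ± 0.27 (SD, n = 3 each), a difference of -2.00 with a standard error of 0.23, or 4.0-fold. It ranked 5 of 41751 among the lowest differences. The control arrays were also far apart from each other: their standard deviation exceeded that of 99.96% of probe sets, and that of the myocilin arrays exceeded 97.9%. Control array 3 was exactly at the reference level, and without that array the difference was -2.30, while over all single arrays left out it stayed between -2.30 and -1.76.

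INHBB, which encodes the beta B subunit of activin B and inhibin B, read -0.59, -0.51 and -0.40 on control and 0.13, -0.005 and 0.57 on myocilin arrays. All control arrays were lower than all myocilin arrays. The line means were -0.50 ± 0.09 and 0.23 ± 0.30 (SD, n = 3 each), a difference of 0.73 with a standard error of 0.13, or 1.66-fold. Here the myocilin arrays were the more variable, with a standard deviation above that of 99.0% of probe sets, against 49.2% for the control arrays. Myocilin array 3 was the highest, and the differences with single arrays left out ran from 0.56 to 0.85.

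INHBA, which encodes the beta A subunit of activin A and inhibin A, was read by 2 probe sets. The first by identifier read 0.11, 0.07 and -0.10 on control and 0.06, -0.15 and -0.18 on myocilin arrays. The second read -0.03, 0.06 and -0.10 on control and 0.00, -0.27 and 0.00 on myocilin arrays. The lines overlapped in both, with differences of -0.12 ± 0.09 and -0.07 ± 0.09 (log2, SE), and neither passed.

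INHA, the alpha subunit that turns a beta subunit into an inhibin, read 0.01, -0.23 and 0.00 on control and 0.17, -0.10 and 0.13 on myocilin arrays. In both lines array 2 was the lowest and the ranges overlapped, with a difference of 0.14 ± 0.10 (log2, SE) that did not pass. Of the 4 subunit genes, INHBE and INHBB therefore differed past the threshold and in opposite directions, and INHBA and INHA did not pass.

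GDF11, a ligand of the activin type II receptors that patterns the body axis, was read by 4 probe sets. Averaged over them it read 0.06, 0.03 and 0.07 on control and -0.08, 0.02 and 0.13 on myocilin arrays. The myocilin arrays enclosed the control arrays on both sides. Its probe sets differed by -0.17 to 0.05 between the lines and none passed. The probe set with the lowest of these read 0.13, 0.00 and 0.18 on control and -0.24, 0.07 and -0.03 on myocilin arrays.

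GDF15, a circulating stress signal, was read by 3 probe sets and averaged -0.05, -0.04 and -0.10 on control and -0.02, 0.06 and -0.08 on myocilin arrays. The lines overlapped, with a gene difference of 0.05 ± 0.06 (log2, SE). The probe sets did not follow each other within a line. On control arrays 1, 2 and 3, the second probe set by identifier read -0.31, 0.25 and -0.03, whereas the first read 0.11, -0.16 and -0.25 and the third read 0.04, -0.20 and -0.03. The differences between the lines were 0.04, -0.04 and 0.16 respectively, and none passed.

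FST, the activin trap, had 3 probe sets with differences of -0.23 ± 0.12, -0.13 ± 0.08 and -0.09 ± 0.09 (log2, SE), all below 0 and none past the threshold. Only for the probe set at -0.13 were the lines apart, at 0.17, 0.00 and 0.01 on control and -0.05, -0.02 and -0.13 on myocilin arrays. For the probe set at -0.23, control array 3 at -0.11 lay among the myocilin arrays, which read -0.29, 0.03 and -0.01, while the other control arrays read 0.24 and 0.30.

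Among the receptors, 1 probe set of ACVR2A passed. This type II receptor binds activins with high affinity. This probe set read 0.23, 0.57 and 0.45 on control and 0.04, -0.18 and -0.07 on myocilin arrays. The lines did not overlap, with means of 0.41 ± 0.17 and -0.07 ± 0.11 (SD, n = 3 each), a difference of -0.49 ± 0.10 (SE) or 1.40-fold. Without myocilin array 2 the difference was -0.43 and no longer passed. The other probe set read -0.03, 0.27 and -0.04 on control and 0.02, -0.07 and -0.15 on myocilin arrays. It overlapped between the lines, at -0.13 ± 0.10 (SE), and did not pass. Control array 2 was the highest in both. The mean of both probe sets differed by -0.31 ± 0.09 (SE) and passed in the fit over genes, but lost the call without control array 2 (-0.22), control array 3 (-0.32), myocilin array 1 (-0.36), myocilin array 2 (-0.28) or myocilin array 3 (-0.29), and with the probe set that did not pass alone.

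ACVR2B, the other type II receptor, was read by 3 probe sets that differed by 0.17, -0.03 and -0.05, none past the threshold. The widest spread was that of the probe set with the first of these differences, on the control arrays, at -0.45, 0.10 and -0.21, against 0.03, 0.00 and -0.08 on the myocilin arrays. ACVR1B, the type I receptor of activins also called ALK4, had 6 probe sets with differences from -0.10 to 0.14. Their mean read -0.03, 0.07 and -0.004 on control and -0.04, -0.08 and 0.10 on myocilin arrays, so the lines overlapped and none of the 6 passed. On the probe set with the largest of these differences, control arrays read -0.04, -0.11 and 0.00 and myocilin arrays 0.10, -0.11 and 0.30.

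**Figure D2:**
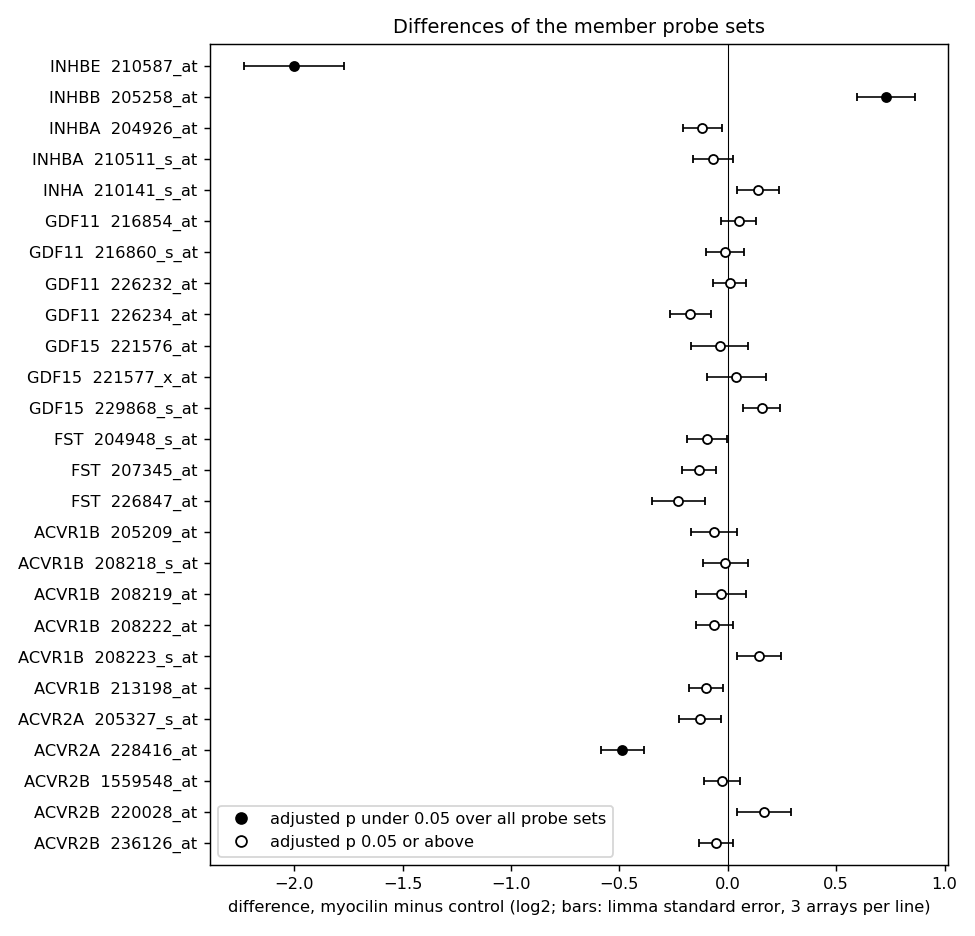
Difference between the lines, myocilin minus control (log2), for each member probe set, with the limma standard error as bars (3 arrays per line) and filled points for an adjusted p under 0.05 over all probe sets. INHBE at -2.00, the ACVR2A probe set at -0.49 and INHBB at 0.73 are the filled points, and the others lie between -0.23 and 0.17.

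The genes beside each member on its chromosome were read for a regional shift, taking the 10 nearest measured genes on each side, a choice made after the values were seen. Around INHBE, the 20 neighbours on chromosome 12 had a median difference of -0.07, with 4 lower and 0 higher. The 4 were STAT6 at -0.29, SHMT2 at -0.36, DDIT3 at -0.73 and MBD6 at -0.22. INHBC, a related subunit gene directly beside INHBE, differed by -0.07 and GLI1 on the other side by -0.09, neither past the threshold. INHBB had neighbours with a median of 0.03, of which 2 were higher and 0 lower. ACVR2A had neighbours with a median of -0.09, of which 6 were lower and 0 higher. The 6 differed by -0.39 to -0.26, beside -0.31 for the mean of the ACVR2A probe sets. Over all genes 8.28% passed as higher and 7.35% as lower. A regional shift was not tested. With the neighbours' median subtracted, the differences were -1.94 for INHBE, 0.70 for INHBB and -0.22 for ACVR2A (mean of its probe sets). Over the 10 members, the neighbours' medians lay between -0.09 and 0.07.

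The other genes of the pathway were taken from lists by role, and each gene was given by the mean of its probe sets and tested in the limma fit over 18338 genes. In that fit 15.6% of genes passed, 8.28% higher and 7.35% lower, with a median difference of 0.02. The unadjusted p was under 0.05 for 5503 of the 18338. Apart from stress genes, 53 of 60 listed genes were measured, and 2 were higher and 7 lower, with a median of -0.05. The lists were drawn up with earlier results of these arrays known. A gene mean can hide a probe set that passed. LTBP3, BMPR2, SMAD6, TRIM33, PCSK6, CDKN2B and ASNS did not pass as genes but had 1 or 2 such probe sets.

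Of 8 other receptors measured, 1 was higher and 1 lower. ACVR1C, also called ALK7, a type I receptor for activin B and nodal, read -0.16, -0.44 and -0.23 on control and 0.07, 0.23 and 0.33 on myocilin arrays. It rose by 0.49 ± 0.09 (log2, SE; limma adjusted p = 0.00689), and both of its probe sets passed, at 0.45 and 0.53. No control array reached the lowest myocilin array. BMPR1B, a type I receptor for bone morphogenetic proteins, fell by 0.31 ± 0.06 (limma adjusted p = 0.00951), with 2 of 3 probe sets past the threshold. Its first probe set by identifier, at -0.20, did not pass. The remaining 6 receptors, among them ACVR1, TGFBR1 and TGFBR2, did not pass, and RET, the signalling partner of the GDF15 receptor, differed by 0.04. Of the 5 probe sets of BMPR2, 1 passed, while its gene mean differed by -0.14.

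The 5 other ligands measured were INHBC, MSTN, NODAL, GDF3 and LEFTY1, and 0 passed by limma, with 0 at an unadjusted p under 0.05, the largest difference being 0.12 for GDF3 and the next 0.08 for LEFTY1 (limma adjusted p = 0.371 and 0.45). Of 9 binders and co-receptors, 1 fell. This was LTBP1, which tethers latent TGF-beta in the matrix, at -0.52 ± 0.07 (log2, SE; limma adjusted p = 0.00121), with both probe sets past the threshold. FSTL3, a follistatin relative that also binds activins, differed by -0.09 and TGFBR3, the inhibin co-receptor betaglycan, by -0.10, neither past the threshold. Of 7 proteases that cut precursors of these ligands, PCSK5 fell by 0.34 ± 0.08 (limma adjusted p = 0.0235). That call was lost without control array 2 (-0.28), control array 3 (-0.31), myocilin array 1 (-0.36) or myocilin array 3 (-0.29). FURIN differed by -0.06 and did not pass. PCSK6 did not pass as a gene mean, at -0.13, but 2 of its 4 probe sets passed. Its probe sets differed by -0.58 to 0.40.

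Of 15 SMADs and SMAD regulators, 1 rose and 4 fell, with a median of -0.10. TGIF1, a corepressor of SMAD2, fell by 0.50 ± 0.06 and SMAD2 by 0.52 ± 0.07 (log2, SE; limma adjusted p = 0.000669 and 0.00117). SMAD7, the inhibitory SMAD, fell by 0.35 ± 0.07 (limma adjusted p = 0.0107). SMAD2 read 0.05, 0.23 and 0.14 on control and -0.35, -0.34 and -0.45 on myocilin arrays, and 5 of its 6 probe sets passed. The fourth to fall, SMAD4, named after its value was seen, read -0.23 ± 0.06 (limma adjusted p = 0.0269). Only 1 of its 5 probe sets passed. SMAD4 lost the call without any 1 of control arrays 2 and 3 or the 3 myocilin arrays (-0.24 to -0.20). It also lost the call with probe sets of the _x_at and _s_at suffixes left out (-0.16), and read 0.03 from its first probe set by identifier. PMEPA1, a target of SMAD signalling that restrains it and was listed as a regulator, rose by 0.37 ± 0.07 (limma adjusted p = 0.0109).

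All 4 of the SMAD genes and regulators that fell lie on chromosome 18, where 132 of 274 measured genes were lower and 4 higher, with a median of -0.21. The 11 other genes of that list had 1 higher and 0 lower and a median of -0.04, an alternative chosen after the values were seen. SMAD3, which is not on that chromosome, differed by -0.10 and did not pass. The part of the chromosome in the SMAD2, SMAD4, SMAD7 and TGIF1 values was not tested. Of the 11 genes in the list of SMAD2 and SMAD3 targets, which does not hold PMEPA1, 9 were measured and 0 passed in this limma fit and 1 at an unadjusted p under 0.05. The smallest p was that of JUNB, an AP-1 factor, at 0.20 (limma adjusted p = 0.133), followed by the cell cycle inhibitor gene CDKN1A at 0.11 (limma adjusted p = 0.202). CDKN2B did not pass as a gene mean, at -0.21, but 1 of its 2 probe sets passed, at -0.43, against 0.01 for the other.

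**Figure D3:**
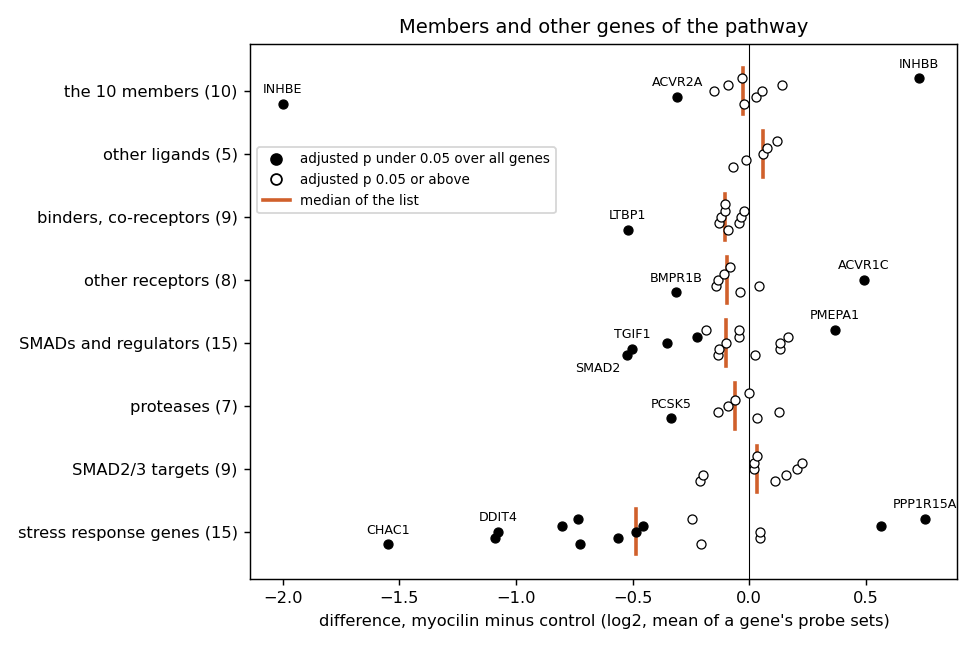
Difference between the lines (log2, myocilin minus control, mean of a gene's probe sets) for the 10 members and the genes of each list by role, with the number measured in brackets, filled points for an adjusted p under 0.05 over all genes and a bar at the list's median. Medians lie between -0.10 and 0.06 except for the stress response genes, at -0.49.

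Stress response genes and their regulators, listed because INHBE and GDF15 are known to answer such stress, were lower in 9 and higher in 2 of 15 cases, with a median of -0.49. CHAC1, which degrades glutathione, fell by 1.55 ± 0.13, DDIT4, an inhibitor of mTORC1, by 1.08 ± 0.09 and TRIB3, a pseudokinase that feeds back on ATF4, by 0.80 ± 0.10 (log2, SE; limma adjusted p = 0.00016, 0.000205 and 0.000921). PPP1R15A, which ends the stress block on translation, rose by 0.75 ± 0.06 (limma adjusted p = 0.000118). The other to rise was the immediate early factor gene EGR1, named after its value was seen, at 0.56 ± 0.13 (limma adjusted p = 0.017). It lost the call without any 1 of the 3 myocilin arrays (0.56 to 0.57), and read 0.22 from its first probe set by identifier and did not pass. DDIT3, the stress factor whose gene is near INHBE, fell by 0.73 ± 0.16 (limma adjusted p = 0.0156), a call lost without myocilin array 1 (-0.68) or myocilin array 2 (-0.66). GDF15, as given above, differed by 0.05 and did not pass. Whether GDF15 differed from the other stress genes was not tested.

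For markers of the line and of other cell types, only differences between the lines can be read. Over all genes 15.6% passed, 8.28% higher and 7.35% lower, with a median difference of 0.02, and nothing is read from the marker counts. Of 10 HEK293 markers measured, 2 were higher and 1 lower, with a median of 0.19, and their mean lay between -0.10 and -0.02 on control and between 0.13 and 0.17 on myocilin arrays. The neurofilament gene NEFM rose by 1.42 ± 0.06, with 1 of its 2 probe sets past the threshold (2.66, against 0.17 for the other), and INA, another neuronal filament gene, by 0.35 ± 0.06 (log2, SE; limma adjusted p = 3.8e-06 and 0.00637). CDH2, which encodes N-cadherin, fell by 0.50 ± 0.06 (limma adjusted p = 0.000836). NEFM had by far the largest difference of the 10, so the gap between the lines in their mean rests largely on 1 probe set of NEFM. Of 7 fibroblast markers 1 was higher, the collagen gene COL1A1 at 0.25 ± 0.06 (limma adjusted p = 0.024), with 1 of its 5 probe sets past the threshold. That call was lost without control array 1 (0.24), control array 2 (0.22), myocilin array 1 (0.24) or myocilin array 2 (0.23). Of 4 endothelial and 4 blood cell markers 0 passed, and of 4 trabecular meshwork markers MYOC alone did. An unadjusted limma p was under 0.05 for 0 of the endothelial and 2 of the blood cell markers, against 5503 of all 18338 genes. These markers were named after their values were seen, and their part in the differences of the subunit, receptor, SMAD and stress genes was not tested.

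Within the control line, INHBE and most of the stress genes shared an order of arrays. The order does not use the difference between lines, but the stress genes were listed with results of these arrays known. INHBE was highest on control array 2, then 1, then 3. The mean of the 15 stress genes was 0.06, 0.20 and -0.08 on control arrays 1, 2 and 3, the same order. Taken singly, 11 of the 15 had that order, against 15.4% of all 18338 genes. Stress genes may shift together on an array, so these are not 11 separate observations, and the shared order was not tested. On the myocilin arrays INHBE was highest on array 2, at -1.10, whereas the stress mean was -0.38, -0.43 and -0.30 and thus lowest there. None of the 15 (0) had the INHBE order on those arrays, against 12.3% of all genes.

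The profiles of other genes over the 6 arrays were compared with that of INHBE by Euclidean distance, after subtracting each gene's mean. The nearest was the noncoding RNA gene LINC02806, at a distance of 0.674, followed by SLC7A11, the cystine and glutamate exchanger, at 0.782 and SLC7A3, a transporter of cationic amino acids, at 0.784. ENPEP, an aminopeptidase, lay at 0.895 and CHAC1 at 0.907. For scale, the INHBE profile itself lay 2.59 from a flat line. Pearson's r with INHBE over the 6 arrays was 0.98, 0.96, 0.96, 0.94 and 0.96 in that order, with the gap between the lines included. For deviations from the line means it was 0.85, 0.52, 0.72, 0.10 and 0.54.

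LINC02806 had the INHBE order of arrays in both lines, at 0.40, 0.84 and 0.31 on control and -1.33, -0.98 and -1.10 on myocilin arrays. ENPEP did not, being lowest on control array 1, at 1.26, against 1.48 and 1.55 on the others. Chosen by Pearson's r instead, the first gene was CENPE, a mitotic motor protein, with r = 0.996 but a difference of only -0.39, so the choice of measure changes the names. GDF15 and ACVR1B, as means of 3 and 6 probe sets, had profiles that lay 0.129 and 0.151 from a flat line. Before averaging, probe set values ran from -0.42 to 0.25 for GDF15 and from -0.30 to 0.31 for ACVR1B. The nearest genes to the mean profile of GDF15 were IL21R, TMEM38B, RACGAP1, RASIP1 and LY9, at 0.0231 to 0.0437. For ACVR1B they were ZNF594-DT, SAMD15, CCDC106, SLC12A9 and SLC7A13, at 0.0345 to 0.0502. Such mean profiles vary little beyond the spread between arrays, and each correlation here is a description over 6 arrays of 2 lines.

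**Figure D4:**
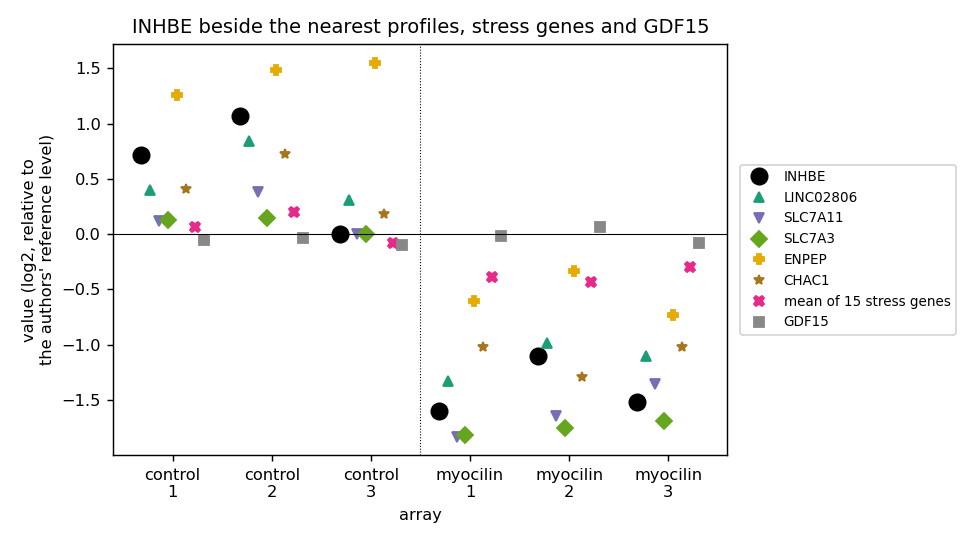
Values (log2, relative to the authors' reference level) on each of the 6 arrays for INHBE, the 5 genes nearest to it in profile, the mean of 15 stress genes and GDF15. INHBE falls from 0.00 to 1.07 on control arrays to -1.60 to -1.10 on myocilin arrays. GDF15, drawn as the mean of 3 probe sets that do not follow each other, lies between -0.10 and 0.06.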

How the data were processed

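The deposited table holds 41751 probe sets on 6 arrays. The authors' deposited values are on a log scale, read as log2 from their range; for the base, the software, the background correction and the normalisation, the sources used here state nothing. Array medians are 0, and an exact 0 occurs for 57.3% of probe sets, so each probe set appears centred on an unstated reference and no detection filter could be applied. The platform annotation gave 37460 probe sets to 1 gene, 1728 to several and none to 2563. Entrez identifiers of 37416 matched RefSeq and 44 kept the annotation's symbol. Gene values are means of probe sets. Groups came from source names, and replicates were numbered in accession order. The lines were compared with limma 3.58.1 (R 4.3.3; lmFit, eBayes, two-sided, Benjamini-Hochberg), tested on simulated data. The members, lists and tests were chosen with earlier results of these data known. Named genes were the members, MYOC, up to 4 genes of each list past the threshold by p (2 by p where none passed) and the 5 nearest profiles of INHBE, GDF15 and ACVR1B; neighbours, CENPE and other list genes were named after their values were seen. Precision is limited by 3 arrays per line. Alternatives were array weights, a trended robust eBayes, median centring, quantile normalisation, a Welch test, only probe sets with neither the _x_at nor the _s_at suffix, the first probe set by identifier, and each array left out.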

Additional observations from a re-analysis of the deposited data

How the results depend on the processing

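No paired analysis was possible because the labels give the lines no shared replicate numbers. Over all probe sets 4603 passed, against 26 by a Welch test, 2695 of 27483 with the _x_at and _s_at suffixes left out and 2281 to 3283 with single arrays left out, by over 1.5 times fewer for every array but control array 1. Over genes 2866 passed, against 44, 1878 (of 15545) and 1613 to 2220 respectively; the counts fell to 1889 without control array 2, 1905 without myocilin array 2 and 1613 without myocilin array 1. The 3 member probe sets and 20 of 68 pathway genes past the threshold became 0 and 0 by the Welch test, which called none of the ligands, SMAD targets, endothelial or blood cell markers, NEFM, INA, CDH2 or COL1A1 either, and 2 to 3 and 17 to 21 with single arrays left out. The Welch test estimates each line's variance from 3 arrays alone. The inserted gene MYOC, at a difference of 7.99, did not pass by the Welch test over genes either (adjusted p = 0.097). Of 370 recomputed member differences, 365 moved by less than the spread between arrays, 5 moved further and 0 of those past the threshold changed sign. The 5 came from the choice of probe sets for ACVR2A (-0.13 or -0.49), GDF11 (0.05) and GDF15 (-0.04). Many of the 365 could not move, or could not be counted as moved. With 3 arrays per line, leaving out 1 must shift a difference by less than the spread between arrays, the pooled standard deviation within lines. No difference with an array left out could therefore count as moved. Array medians were already 0, so median centring changed no value. Leaving out suffixes could not change a kept probe set, and the first probe set by identifier could not change a gene with a single probe set. The count therefore overstates how often a difference was put to a test. SMADs and regulators past the threshold went from 5 to 1 without chromosome 18. Values near background cannot be recognised in centred data.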
